A study of Mus musculus with 6 samples.

Results

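The genes described here encode the subunits, activators and assembly chaperones of the proteasome, including the immunoproteasome. They were chosen by symbol: every feature named Psma, Psmb, Psmc, Psmd, Psme, Psmf or Psmg with a number, which gave 49 of the 31053 features, all present in each of the 6 count matrices. The data were single-nucleus RNA counts from hippocampal nuclei sorted for PU.1, a transcription factor of myeloid cells, from mice aged 9.5 months, in a study of whether TREM2 is needed for the microglial response to tau when APOE4 is present. Each of the 6 genotypes was 1 library, made from the pooled hippocampi of 3 mice. The genotypes were P301S/E4/TREM2- and P301S/E4/TREM2+ (mutant human tau with human APOE4), E4/TREM2+ and E4/TREM2- (APOE4 without the tau transgene), and P301S/EKO/TREM2+ and P301S/EKO/TREM2- (mutant tau without Apoe). TREM2+ and TREM2- mark Trem2 present or absent, and all 4 P301S libraries carry the same tau mutation. The promoter that drives the tau transgene is not given in the sources used here, and pooling leaves no measure of the spread between mice.

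The proteasome degrades proteins that carry ubiquitin chains. Its barrel-shaped core particle is built from rings of alpha (Psma) and beta (Psmb) subunits, and the beta subunits Psmb5, Psmb6 and Psmb7 cut the protein. A regulatory particle of ATPases (Psmc) and non-ATPase subunits (Psmd) caps the barrel, binds ubiquitin and unfolds the substrate. Interferons and other inflammatory signals induce Psmb8, Psmb9 and Psmb10, which replace Psmb5, Psmb6 and Psmb7 in newly assembled cores to form the immunoproteasome, and the activator PA28, made of Psme1 and Psme2. The immunoproteasome is best known for making peptides for MHC class I, and microglia, the resident macrophages of the brain, raise it in inflammation. Psmb8, Psmb9, Psmb10, Psme1 and Psme2 are called the inducible members below.

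After nuclei with under 200 detected genes or over 5% mitochondrial UMIs (unique molecular identifiers, 1 per captured RNA molecule) were left out, 31738 of 33335 deposited nuclei remained, 3582 to 7004 per library with 3172124 to 8376816 UMIs, of which 65696 belonged to proteasome members. The shallowest nucleus deposited had 224 to 500 UMIs, depending on the library, and pairs of libraries shared 4 to 11 barcodes. Apoe was at 9.14 and 14.2 counts per 1000000 UMIs of the library (CPM) in the P301S/EKO libraries and at 187 to 1184 CPM in the others. Trem2 was at 348 to 580 in the TREM2- libraries and at 917 to 1114 in the TREM2+ libraries; a 3' tag outside a deleted part cannot check the genotype. All 23 microglia markers were detected in every library, and clusters with a microglia-like profile held 82.7% to 91.9% of nuclei. T and NK cell markers summed to 0 to 1.61 CPM. Fewer cells of a type and less RNA per cell cannot be told apart in sums over a library.

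Summed over the 5 inducible members, the level was 386 CPM in P301S/E4/TREM2-, 380 in P301S/E4/TREM2+, 365 in P301S/EKO/TREM2+, 337 in P301S/EKO/TREM2-, 295 in E4/TREM2+ and 248 in E4/TREM2-. The 4 libraries with mutant tau were thus above both libraries without it, and their exact 95% Poisson intervals, which cover counting error only, did not reach those of the E4 libraries. The other 44 members summed to between 1892 and 2002 CPM, a range without the separation by genotype seen for the inducible members. The inducible members made up 16.6% of all proteasome UMIs in P301S/E4/TREM2- (95% Clopper-Pearson interval 16.1% to 17.1%), 16.4% in P301S/E4/TREM2+ (15.7% to 17.0%) and 15.6% in P301S/EKO/TREM2+ (14.9% to 16.4%). The share was 14.4% in P301S/EKO/TREM2- (13.6% to 15.2%), 13.1% in E4/TREM2+ (12.3% to 13.8%) and 11.6% in E4/TREM2- (10.9% to 12.3%).

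**Figure D1:**
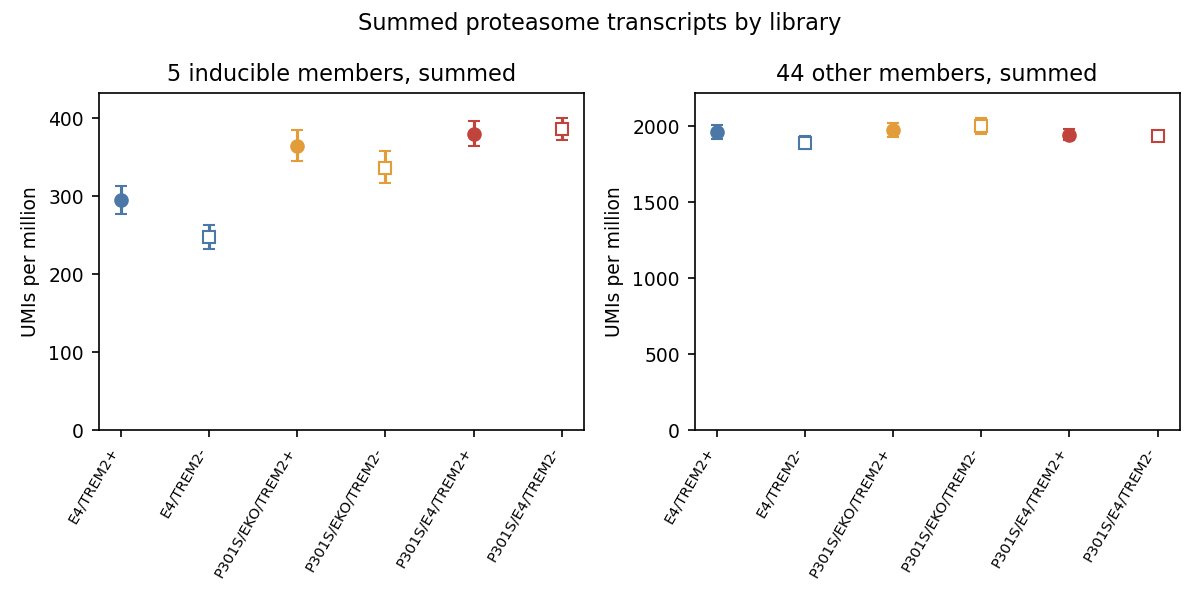
CPM (vertical axis, from 0) summed over the 5 inducible members (left) and the 44 other members (right) in each library, with exact 95% Poisson intervals that cover counting error only; filled circles are TREM2+ and open squares TREM2- libraries. The inducible sum runs from 248 in E4/TREM2- to 386 in P301S/E4/TREM2-, while the other members stay between 1892 and 2002.

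The first comparison was mutant tau with APOE4 against APOE4 alone, P301S/E4 minus E4, over both TREM2 genotypes. Psmb9, Psmb8 and Psme1 rose, by 1.55-fold, 1.46-fold and 1.36-fold, and they were 3 of the 47 members with enough UMIs to test. All 3 are inducible members. Among all 12515 genes tested, 7.80% rose and 9.24% fell in this comparison, so 3 risen members of 47 is near the share of all genes; 0 members fell. The inducible members had a median log2 fold change of 0.44 against -0.05 for the 42 other tested members and -0.00 for all genes.

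Psmb9 encodes the inducible counterpart of Psmb6, lies at chr17:34181987-34187764 on the minus strand (GRCm38, GENCODE vM21) and overlaps the start of the peptide transporter gene Tap1 on the opposite strand. Its level was 65.1 CPM in P301S/E4/TREM2- and 59.0 in P301S/E4/TREM2+ against 41.8 in E4/TREM2- and 35.7 in E4/TREM2+, with 57.1 and 57.0 in the P301S/EKO libraries. Both P301S/E4 libraries were above both E4 libraries. Its log2 fold change was 0.63 (SE 0.15) with an adjusted p of 0.0163 in the edgeR quasi-likelihood test, higher in 2 of 2 pairs of libraries.

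Psmb8, the inducible counterpart of Psmb5, lies in the same stretch of the MHC region at chr17:34197721-34201454 on the plus strand. It stood at 61.8 CPM in P301S/E4/TREM2+ and 56.1 in P301S/E4/TREM2-, against 41.9 in E4/TREM2+ and 36.4 in E4/TREM2-. The P301S/EKO libraries were at 58.6 and 50.1, so the E4 libraries were again the lowest pair. The log2 fold change was 0.55 (SE 0.15, edgeR adjusted p = 0.0291), and the separate ratios were 0.56 (95% counting interval 0.28 to 0.85) with TREM2 and 0.63 (0.35 to 0.90) without it.

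Psme1 encodes the alpha subunit of PA28, the ring that opens the core without ATP, and lies at chr14:55578123-55581529 on the plus strand. It had 182 and 180 CPM in the P301S/E4 libraries, 172 in P301S/EKO/TREM2+, 152 in E4/TREM2+, 149 in P301S/EKO/TREM2- and 110 in E4/TREM2-. Both P301S/E4 libraries were above both E4 libraries, and E4/TREM2- lay well below the rest. The log2 fold change was 0.44 (SE 0.13, edgeR adjusted p = 0.0469). The ratio was 0.26 (95% counting interval 0.11 to 0.42) between the TREM2+ libraries and 0.71 (0.56 to 0.87) between the TREM2- libraries, and the difference between these ratios was not tested.

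The inducible members Psme2 and Psmb10 did not pass the test, nor did Psme2b. Psme2, the beta subunit of PA28 (chr14:55587441-55591113, minus strand), had 60.3 and 54.0 CPM in P301S/E4/TREM2- and P301S/E4/TREM2+ and 44.1 and 42.3 in the E4 libraries, a log2 fold change of 0.36 (SE 0.15, edgeR adjusted p = 0.140). Psme2b, a near copy of Psme2 on another chromosome (chr11:48945354-48946190, minus strand), had 55.4 and 41.4 against 32.4 and 30.6 in the E4 libraries and a log2 fold change of 0.57 (SE 0.18, edgeR adjusted p = 0.0535). The annotated transcripts of Psme2 and Psme2b were identical at 99.4% of 794 aligned bases, so reads can be split between them and both values are uncertain. Psmb10, the inducible counterpart of Psmb7 (chr8:105935735-105938444, minus strand), had 24.5 and 23.4 in the P301S/E4 libraries, 21.9 in E4/TREM2+ and 17.2 in E4/TREM2-, a log2 fold change of 0.25 (SE 0.21, edgeR adjusted p = 0.492) that ran from 0.06 without E4/TREM2- to 0.45 without E4/TREM2+. For all 5 inducible members both P301S/E4 libraries lay above both E4 libraries. That order was seen for 12 of the 47 tested members and 31.0% of all tested genes, and the reverse order for 8 members and 24.9% of genes.

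**Figure D2:**
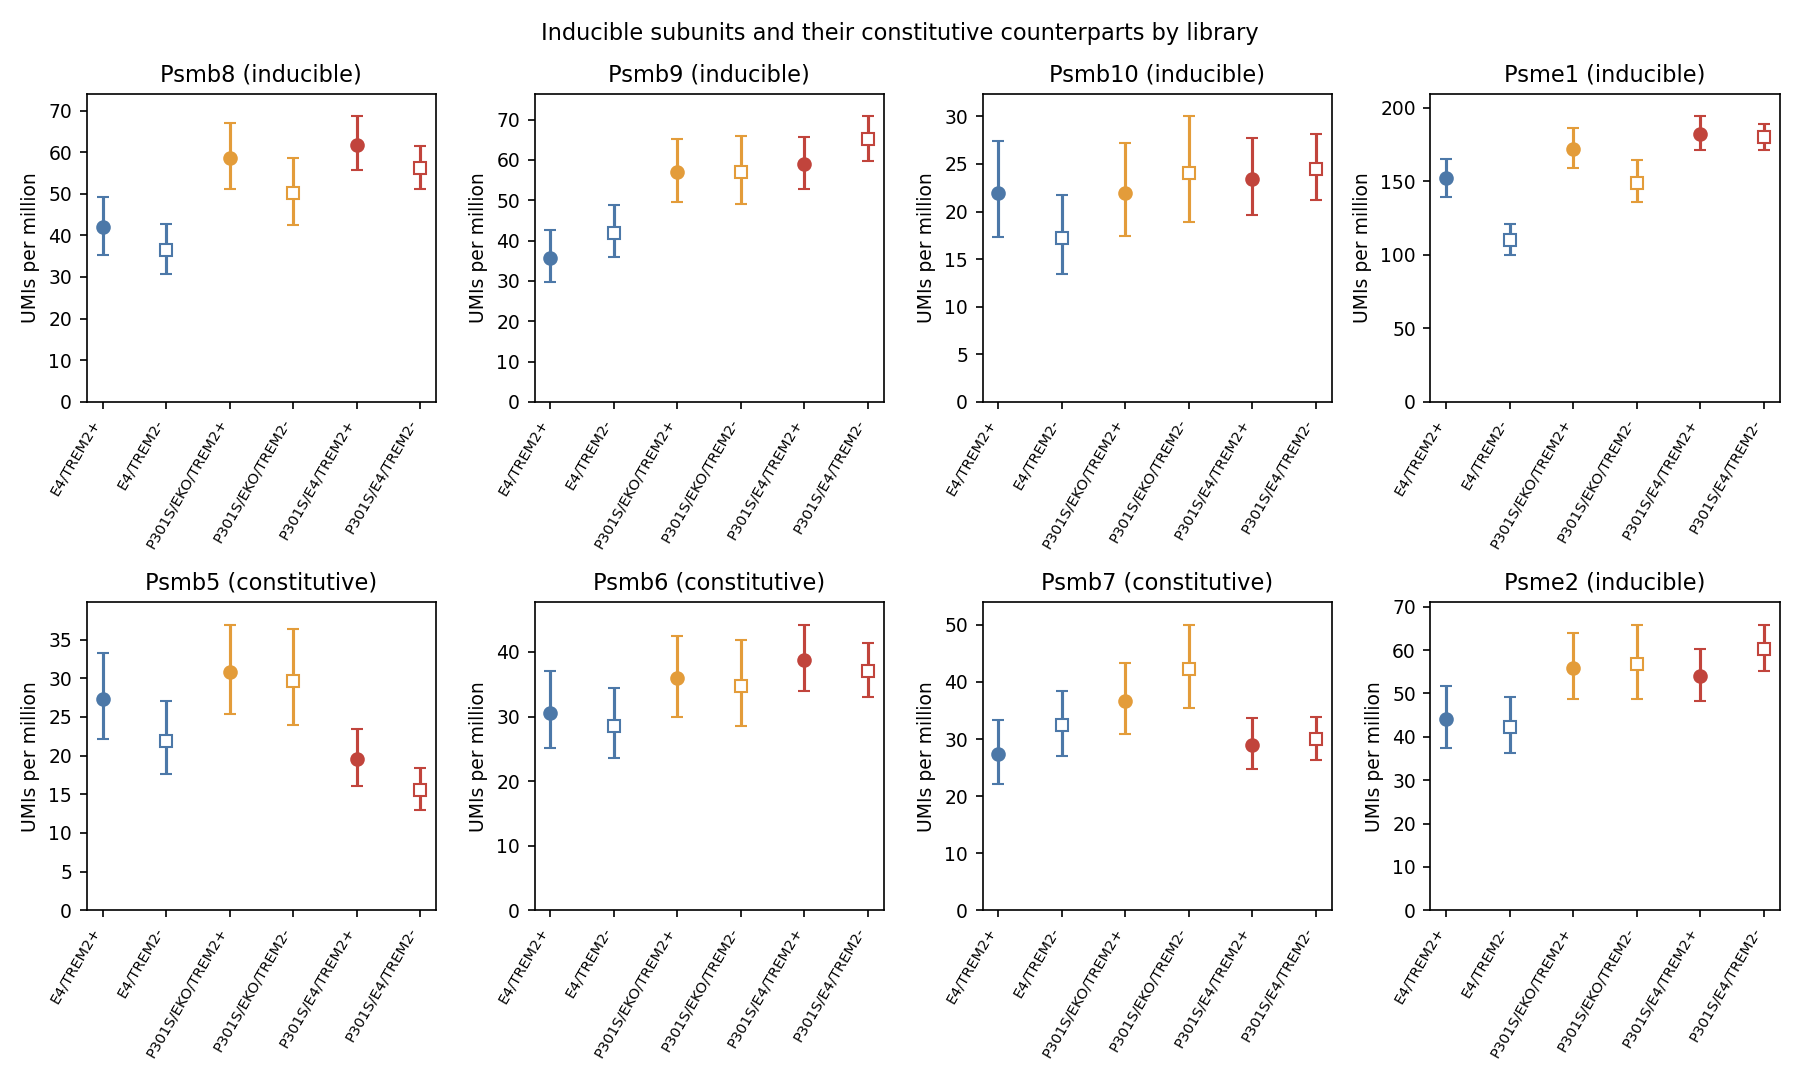
CPM (vertical axes, from 0) of the inducible members Psmb8, Psmb9, Psmb10, Psme1 and Psme2 and of the constitutive catalytic subunits Psmb5, Psmb6 and Psmb7 in each library, with exact 95% Poisson intervals; filled circles are TREM2+ and open squares TREM2- libraries. Psmb9 runs from 35.7 in E4/TREM2+ to 65.1 in P301S/E4/TREM2-, while Psmb5 is lowest in the P301S/E4 libraries at 15.5 and 19.6.

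The calls depended on the libraries kept and on the tool. DESeq2 called 0 members (4 unadjusted, all higher). The calls did not hold when either E4 library was left out, which leaves 1 library in that group. Psmb8 was then at 0.53 (SE 0.23) without E4/TREM2+ and 0.56 (SE 0.24) without E4/TREM2-, beside 0.55 (SE 0.15) with all libraries. Psmb9 was at 0.53 (SE 0.23) and 0.74 (SE 0.24), beside 0.63 (SE 0.15). Without P301S/E4/TREM2+, Psme2b was at 0.78 and Psmb4 at -0.83. Psma6, an alpha subunit, was then at -0.85 and Psmc6, an ATPase, at -0.54. Psme1 was at 0.29 (SE 0.20) without E4/TREM2- and at 0.59 (SE 0.20) without E4/TREM2+. The adjusted p over all alternatives ran from 0.00249 to 0.176 for Psmb9, from 0.0117 to 0.195 for Psmb8 and from 0.0104 to 0.523 for Psme1, with the log2 fold changes above 0 throughout. Other cell types moved with the groups too: the 10 neuron markers, none at 0, summed to 202 and 342 CPM in the P301S/E4 libraries and to 903 and 2259 in the E4 libraries. The 23 microglia markers, none at 0, summed to 23631 and 23852 in the P301S/E4 libraries and to 32922 and 35222 in the E4 libraries. Microglia-like clusters held 82.7% and 90.5% of nuclei in those P301S/E4 libraries and 91.9% and 89.3% in the E4 libraries, so the shares overlapped. In microglia-like nuclei alone the log2 fold changes were 0.59 for Psmb9 (adjusted p = 0.0311), 0.56 for Psmb8 (adjusted p = 0.0327) and 0.39 for Psme1 (adjusted p = 0.0757), by the same edgeR test.

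None of the constitutive catalytic subunits passed the test for tau. Psmb5, which carries the chymotrypsin-like site and lies at chr14:54614119-54618022 on the minus strand, had 15.5 and 19.6 CPM in P301S/E4/TREM2- and P301S/E4/TREM2+. The E4 libraries had 21.9 without TREM2 and 27.3 with it, and the P301S/EKO libraries 29.6 and 30.8, so the P301S/E4 libraries were the lowest. Its log2 fold change for tau was -0.53 (SE 0.20) and missed the threshold (edgeR adjusted p = 0.105). Psmb6, with the caspase-like site, had 37.0 and 38.8 in the P301S/E4 libraries against 28.6 and 30.6 in the E4 libraries, a log2 fold change of 0.31 (edgeR adjusted p = 0.280). Psmb7, with the trypsin-like site, had 30.0 and 28.9 against 32.4 and 27.3, so its groups overlapped, and its log2 fold change was -0.07 (edgeR adjusted p = 0.865).

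The share of each catalytic pair that came from the inducible gene was read within each library; it moves when either gene moves and is a share of RNA, not of protein. Psmb8 made up 78.3% of Psmb8 and Psmb5 UMIs in P301S/E4/TREM2- (95% Clopper-Pearson interval 74.8% to 81.6%) and 76.0% in P301S/E4/TREM2+ (71.8% to 79.8%). In the other libraries it made up 65.6% (60.2% to 70.7%) in P301S/EKO/TREM2+, 62.8% (56.6% to 68.8%) in P301S/EKO/TREM2-, 62.4% (55.8% to 68.6%) in E4/TREM2- and 60.6% (54.2% to 66.7%) in E4/TREM2+. The P301S/E4 intervals did not reach those of any other library, while those of the P301S/EKO libraries, which also carry tau, overlapped the E4 intervals. Psmb9 made up 53.8% to 63.7% of Psmb9 and Psmb6 UMIs, lowest in E4/TREM2+ and highest in P301S/E4/TREM2-. It was 60.4% (56.2% to 64.4%) in P301S/E4/TREM2+ and 59.4% (53.4% to 65.1%) in E4/TREM2-, so these intervals overlapped. Psmb10 made up 34.7% to 45.0% of Psmb10 and Psmb7 UMIs. It was 44.6% in E4/TREM2+ and 34.7% in E4/TREM2-, so that pair did not separate by tau either.

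**Figure D3:**
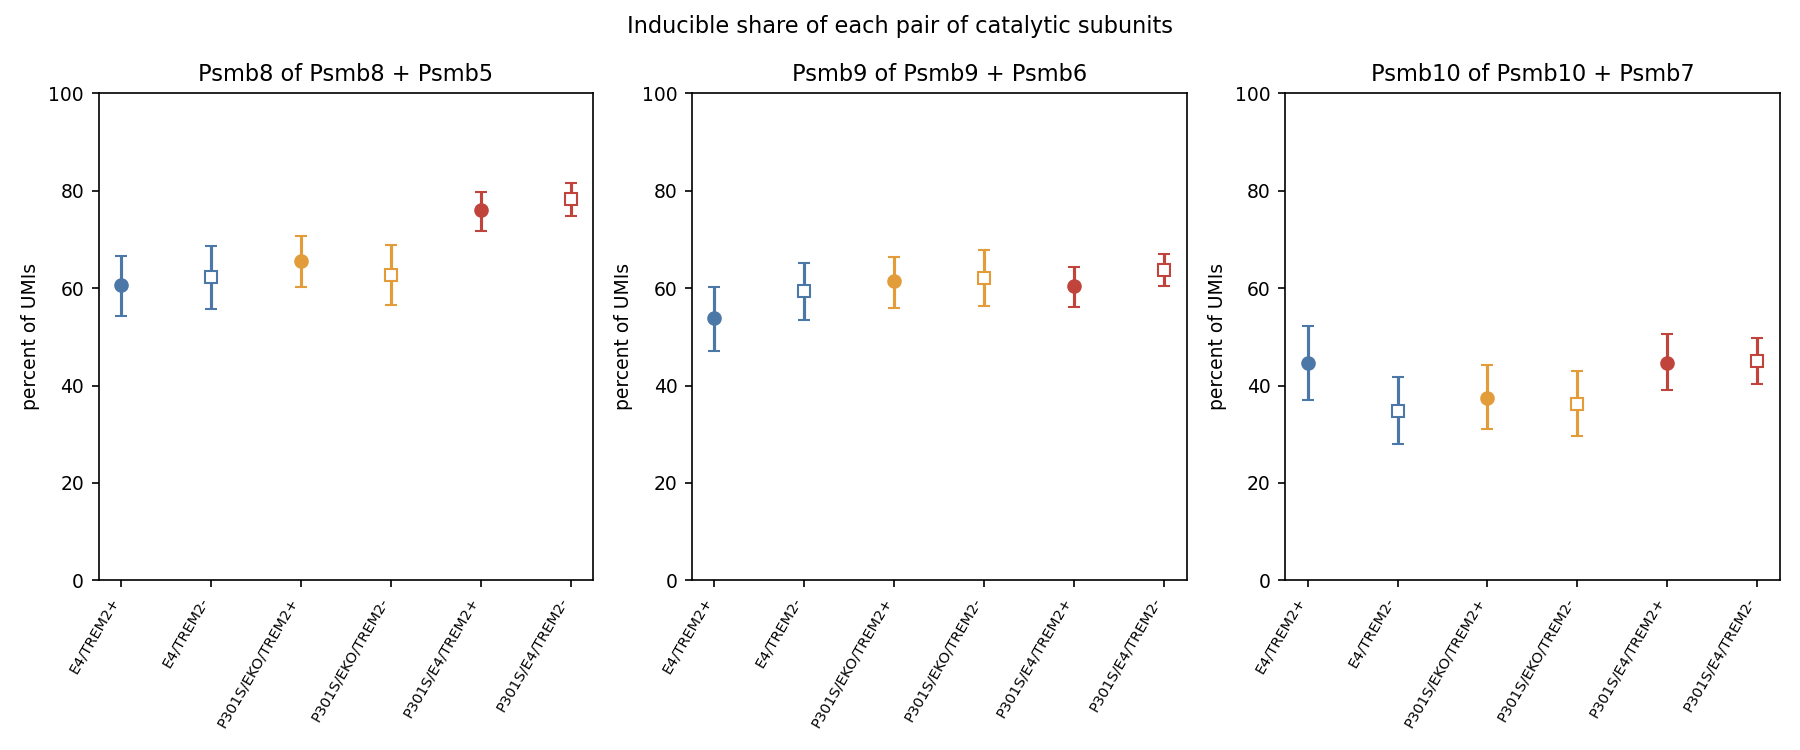
Percent of UMIs (vertical axes, 0 to 100) of each catalytic pair that came from the inducible gene in each library, with exact 95% Clopper-Pearson intervals; filled circles are TREM2+ and open squares TREM2- libraries. The Psmb8 share is 78.3% and 76.0% in the P301S/E4 libraries and 60.6% to 65.6% in the others.

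Sequence before the start of each gene was searched for short motifs of the factors known to drive these genes, as a description of the promoters. RefSeq (GRCm38.p6) gave 44 promoters for 41 of the 49 members, and 250 bases before the start were read on both strands. The motifs were the interferon-stimulated response element GAAANNGAAA, the gamma-activated site TTCNNNGAA, the antioxidant response element TGACNNNGC read by Nfe2l1, which drives constitutive proteasome genes, and the NF-kappaB site GGGNNTTTCC. They are found in 2.98%, 7.02%, 10.2% and 1.41% of all 32841 promoters of that length. Among the inducible members 1 match was found, a gamma-activated site 97 to 89 bases before a Psmb8 start that lies inside the GENCODE gene. The stretches read for Psmb9 and Psme1 also lay inside their GENCODE genes. For Psmb8, Psmb9 and Psme1 the bases before the GENCODE start were therefore not searched, and a missing match says nothing about them. Psmb5 and Psmb6, the constitutive counterparts of Psmb8 and Psmb9, each held the antioxidant response element, as did Psmc6, Psmd9 and Psmd12. That is 5 of the 44 member promoters, or 11.4%, near the 10.2% of all promoters. Psmb7, the counterpart of Psmb10, had no promoter among the 44 and was not searched. The stretches of 30 bases around the match are shown for the catalytic genes on which the share turns, and for the 3 members with an interferon-stimulated response element, none of which is inducible. They are written on the gene's strand, with the match in capitals.
Psmb8, gamma-activated site, chr17:34198088-34198117, plus strand: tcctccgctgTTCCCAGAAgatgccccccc
Psmb5, antioxidant response element, chr14:54618023-54618052, minus strand: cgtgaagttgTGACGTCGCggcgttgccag
Psmb6, antioxidant response element, chr11:70525327-70525356, plus strand: acagaggcggactaaagagagTGACGGAGC
Psmb3, interferon-stimulated response element, chr11:97703261-97703290, plus strand: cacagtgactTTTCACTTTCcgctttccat
Psmd4, interferon-stimulated response element, chr3:95042675-95042704, minus strand: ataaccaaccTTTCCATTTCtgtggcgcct
Psmd9, interferon-stimulated response element, chr5:123228021-123228050, plus strand: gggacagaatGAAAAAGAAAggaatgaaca
In Psmb3 and Psmd4 the capitals hold the motif on the opposite strand, and Psmb6 holds it in the last bases before its start. Psmb3, a structural beta subunit, had 36.1 to 48.9 CPM, Psmd4, a ubiquitin receptor of the regulatory particle, had 89.9 to 122, and Psmd9, an assembly chaperone, had 52.8 to 71.0. None of these 3 passed the test in any comparison.

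The other parts of the particle showed no called member for tau. Of the 7 tested alpha subunits 1 had a log2 fold change above 0, with a range of -0.51 to 0.23. The lowest was Psma5, at 10.7 and 11.1 CPM in the P301S/E4 libraries against 12.9 and 17.4 in the E4 libraries, a log2 fold change of -0.51 (edgeR adjusted p = 0.201). The 4 structural beta subunits lay between -0.24 and -0.04, the 6 ATPases between -0.36 and 0.16 and the 11 non-ATPase subunits between -0.08 and 0.41. The highest of these was Psmd14, the deubiquitinase of the regulatory particle, with 29.7 and 24.2 in the P301S/E4 libraries and 21.4 and 17.9 in the E4 libraries, a log2 fold change of 0.41 (edgeR adjusted p = 0.222). The core chaperone Psmg1 had the lowest value of all members, -0.74 (SE 0.54), at 1.43 to 5.04 CPM in the 6 libraries, which is too few UMIs for a precise ratio. Psmf1, an inhibitor of the core, stood at 12.1 and 9.35 in the P301S/E4 libraries and 8.72 and 7.87 in the E4 libraries, a log2 fold change of 0.32.

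Beside PA28, the core has other activators. Psme4 (PA200), a single-chain nuclear activator, had 63.6 and 57.3 CPM in the P301S/E4 libraries, 79.7 and 75.6 in the E4 libraries and 73.8 and 81.9 in the P301S/EKO libraries. It was lowest in both P301S/E4 libraries, but its log2 fold change of -0.41 (SE 0.14) missed the threshold (edgeR adjusted p = 0.0760) and passed it with 500 or more genes per nucleus (-0.47) and with 500 or more UMIs per nucleus (-0.43). Psme3 (PA28 gamma), the nuclear homolog that interferon does not induce, had 19.6 in P301S/E4/TREM2-, 19.4 in E4/TREM2+, 17.0 in P301S/EKO/TREM2-, 16.1 in P301S/EKO/TREM2+, 13.9 in E4/TREM2- and 11.8 in P301S/E4/TREM2+. Its groups overlapped, and the log2 fold change for tau was -0.14 (edgeR adjusted p = 0.808), with values from -0.58 to 0.28 when 1 library was left out, so its sign was not fixed.

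**Figure D4:**
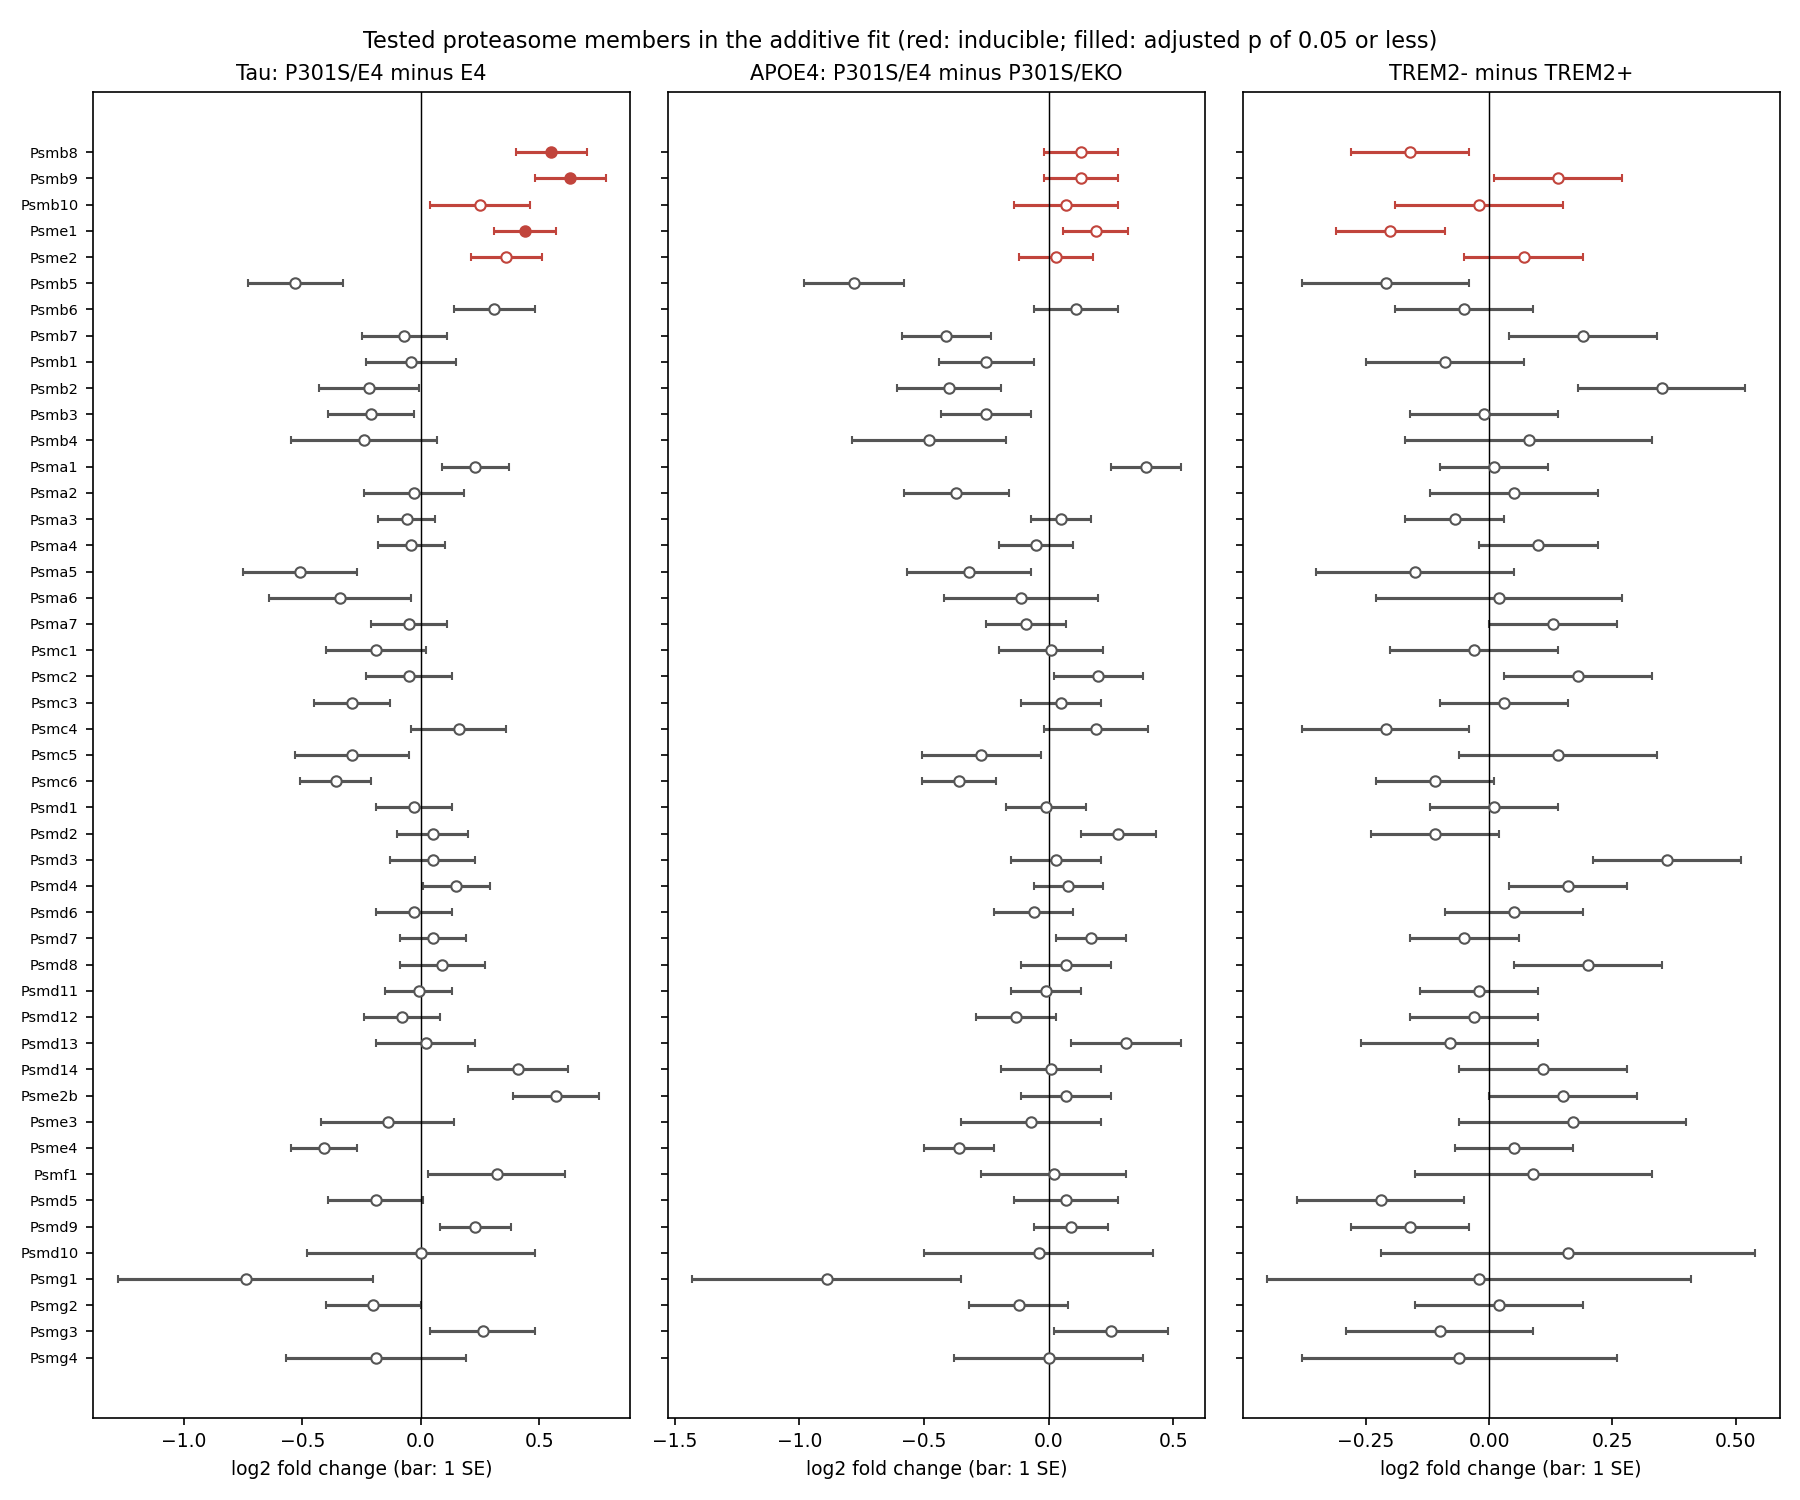
Log2 fold change (horizontal axes, which differ in range; bars 1 SE) of the 47 tested members, 1 row per gene, for tau, APOE4 and TREM2 in the additive fit; inducible members are red, and filled points have an adjusted p of 0.05 or less. Psmb9, Psmb8 and Psme1 are filled for tau, at 0.63, 0.55 and 0.44, and no point is filled for APOE4 or TREM2.

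The second comparison was APOE4 against no Apoe in the presence of mutant tau, P301S/E4 minus P301S/EKO. It shares the P301S/E4 libraries with the tau comparison, so the values of the comparisons are not independent. The edgeR test called 0 of 47 members, where 3.67% of all genes were called. At an unadjusted p of 0.05 or less 1 member was higher and 4 were lower, against 18.3% of all genes in either direction, and DESeq2 called 0 members and had 1 lower member unadjusted. Both P301S/E4 libraries lay above both P301S/EKO libraries for 9 members and below them for 9, against 21.9% and 25.0% of all genes. The inducible members lay between 0.03 and 0.19 on the log2 scale, with a median of 0.13, against -0.01 for the other members and 0.01 for all genes. Psme1 was at 0.19 (SE 0.13), Psmb8 at 0.13 (SE 0.15), Psmb9 at 0.13 (SE 0.15), Psmb10 at 0.07 (SE 0.21) and Psme2 at 0.03 (SE 0.15).

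The members farthest below 0 for APOE4 were Psmg1 at -0.89 (SE 0.54), Psmb5 at -0.78 (SE 0.20) and Psmb4, a structural beta subunit, at -0.48 (SE 0.31). For Psmb5 both P301S/E4 libraries lay below both P301S/EKO libraries, and the adjusted p was 0.0623 in edgeR and 0.262 in DESeq2, within a range of 0.0243 to 0.525 over the alternatives. The separate Psmb5 ratios were -0.65 (95% counting interval -1.04 to -0.27) with TREM2 and -0.93 (-1.33 to -0.53) without it. With no expression filter 1 member passed, which was Psmb5 at -0.75. Without P301S/E4/TREM2+ 3 members passed, all lower, which were Psmb5 at -0.89, Psmb4 at -1.09 and Psmc6 at -0.57. Without P301S/E4/TREM2- the Psmb4 value turned to 0.13, and without P301S/EKO/TREM2- it was -0.07. Psmb4 had 12.1 CPM in P301S/E4/TREM2- and 19.2 in P301S/E4/TREM2+, against 17.7 and 26.2 in the P301S/EKO libraries.

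At the upper end of the APOE4 comparison were Psma1, an alpha subunit, at 0.39 (SE 0.14), and the regulatory particle subunits Psmd13 at 0.31 (SE 0.22) and Psmd2 at 0.28 (SE 0.15). Psma1 had 134 and 133 CPM in the P301S/E4 libraries and 109 and 96.3 in the P301S/EKO libraries, without overlap, and an edgeR adjusted p of 0.168. The remaining catalytic subunits were at -0.41 (SE 0.18) for Psmb7 and 0.11 (SE 0.17) for Psmb6. Psmb7 had 42.2 and 36.7 in the P301S/EKO libraries and 30.0 and 28.9 in the P301S/E4 libraries, with an edgeR adjusted p of 0.259. Psme4 was at -0.36 (SE 0.14, edgeR adjusted p = 0.214) and Psme3 at -0.07 (SE 0.28).

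The third comparison was TREM2- minus TREM2+ over the 3 backgrounds, which bears on the question of TREM2 dependence. The edgeR test called 0 of 47 members, where 0.112% of all genes, 14 genes, were called. At an unadjusted p of 0.05 or less 1 member passed, Psmd3, against 6.22% of all genes, and DESeq2 had 0 members at either threshold. The inducible members had a median log2 fold change of -0.02, the other members 0.02 and all genes 0.01, and members ranged from -0.22 to 0.36. A p that misses the threshold does not show that the levels were equal.

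Within the inducible members the TREM2 values differed in sign. Psme1 was at -0.20 (SE 0.11), Psmb8 at -0.16 (SE 0.12), Psmb10 at -0.02 (SE 0.17), Psme2 at 0.07 (SE 0.12) and Psmb9 at 0.14 (SE 0.13). Psmb8 had fewer CPM in the TREM2- library of every background, with log2 ratios of -0.14 (95% counting interval -0.34 to 0.06), -0.20 (-0.54 to 0.14) and -0.23 (-0.53 to 0.08) in P301S/E4, E4 and P301S/EKO, and each interval held 0. Psme1 had a ratio of -0.46 (-0.65 to -0.28) in E4 and -0.20 (-0.38 to -0.03) in P301S/EKO, and of -0.02 (-0.13 to 0.10) in P301S/E4. Its lower level without TREM2 was therefore seen in the backgrounds other than P301S/E4, and the difference between backgrounds was not tested. The library with the lowest Psme1, E4/TREM2-, was also the one with the highest neuron marker sum, 2259 CPM, whose part in the result was not tested.

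The member farthest from 0 for TREM2 was Psmd3, a regulatory particle subunit. It had 38.2, 35.6 and 36.1 CPM in the TREM2- libraries of P301S/E4, P301S/EKO and E4 against 29.4, 30.8 and 27.3 in the TREM2+ libraries. Its groups did not overlap, which held for 2 members above and 3 below, against 2.23% and 4.31% of all genes, and its log2 fold change was 0.36 (SE 0.15, edgeR adjusted p = 0.741). Psmb2 followed at 0.35 (SE 0.17) and Psmd8 at 0.20 (SE 0.15). The lowest were the chaperone Psmd5 at -0.22 (SE 0.17), the ATPase Psmc4 at -0.21 (SE 0.17) and Psmb5 at -0.21 (SE 0.17). Among the other catalytic subunits and activators, Psmb6 was at -0.05, Psmb7 at 0.19, Psme3 at 0.17 (-0.16 to 0.44 with 1 library left out) and Psme4 at 0.05.

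Genes that work with the proteasome were read from 2 lists. The first held 22 partners of the particle (ubiquitin genes, shuttle factors, deubiquitinases, assembly and transcription factors), of which 20 were measured and tested. For tau 0 rose and 1 fell, where 7.80% of all tested genes rose and 9.24% fell. For APOE4 0 rose and 1 fell, where 3.67% of all genes were called, and for TREM2 0 were called, where 0.112% were. A count of 1 in 20 is near the share of all genes, so it is not a result about the list. The called gene was Akirin2, known for bringing proteasomes into the nucleus. It had 26.0 and 35.0 CPM in P301S/E4/TREM2- and P301S/E4/TREM2+, 69.0 and 48.9 in the E4 libraries and 60.5 and 59.4 in the P301S/EKO libraries. The P301S/E4 libraries were the lowest pair, with log2 fold changes of -1.01 (SE 0.22, edgeR adjusted p = 0.00941) for tau and -0.97 (SE 0.22, edgeR adjusted p = 0.0380) for APOE4. No partner was called for tau without P301S/E4/TREM2- or without E4/TREM2-, nor for APOE4 without P301S/E4/TREM2- or in microglia-like nuclei alone. Nfe2l1, the transcription factor of constitutive subunits, was at -0.35 for tau (edgeR adjusted p = 0.104), and Pomp, which helps assemble the core, at 0.13 (edgeR adjusted p = 0.609).

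The second list held 18 genes of MHC class I antigen processing, the pathway that uses the peptides of the immunoproteasome. For tau 10 rose and 2 fell, where 7.80% of all tested genes rose and 9.24% fell. The median log2 fold change was 1.04, beside the 0.44 of the inducible members. The classical class I gene H2-D1 was at 629 and 760 CPM in the P301S/E4 libraries and 178 and 216 in the E4 libraries, a log2 fold change of 1.76 (SE 0.17, edgeR adjusted p = 9.59e-05). Nlrc5, the transactivator of class I genes, was at 57.4 and 51.4 against 7.03 and 5.73, a log2 fold change of 3.06 (SE 0.27). H2-Q6 at 3.90, H2-Q7 at 3.77 and H2-Q4 at 2.07 completed the highest 5, and as members of a family of similar genes they may share reads. Tap1, whose start overlaps Psmb9, rose by 1.23 on the log2 scale, from 35.1 and 42.7 to 110 and 77.9 CPM. The genes that fell, Pdia3 at -0.73 and Calr at -0.47, encode chaperones of the endoplasmic reticulum. For APOE4 Nlrc5 alone was called (0.94, edgeR adjusted p = 0.0472), and for TREM2 0 of the 18 were called. The shares of all tested genes called were 3.67% for APOE4 and 0.112% for TREM2. For APOE4 the number called was 0 with DESeq2, with its size factors in edgeR, with 500 or more genes per nucleus, in microglia-like nuclei, without P301S/E4/TREM2- and without P301S/EKO/TREM2-. It was 3 with no expression filter, 3 without P301S/E4/TREM2+ and 4 without P301S/EKO/TREM2+.

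Single nuclei held few UMIs of each gene, so they were thinned to 500 UMIs each to compare libraries at equal depth. At least 1 inducible UMI was then found in 18.3% of nuclei in P301S/E4/TREM2- (95% Clopper-Pearson interval 17.4% to 19.2%), 17.9% in P301S/E4/TREM2+ (16.9% to 18.8%), 16.6% in P301S/EKO/TREM2+ (15.4% to 17.8%), 15.5% in P301S/EKO/TREM2- (14.2% to 16.7%), 468 of 3600 nuclei in E4/TREM2+ (11.9% to 14.1%) and 11.4% in E4/TREM2- (10.5% to 12.4%). Without thinning the shares were 32.9%, 27.4%, 28.7%, 18.4%, 17.5% and 17.6% in the same order. A UMI of the other 44 members was found in 60.2% to 62.7% of thinned nuclei. Nuclei with under 500 UMIs could not be used: these were 1827 from P301S/EKO/TREM2-, 1488 from E4/TREM2+, 417 from E4/TREM2- and 0 from the other libraries.

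Neuron-like nuclei, a type not known for high immunoproteasome expression, were read as a comparison. Of 126 thinned neuron-like nuclei 7 held an inducible UMI, 5.56% (2.26% to 11.1%), and 78, or 61.9%, held a UMI of the other members. Psmb8 or Psmb9 was found in 0 of the 126, which allows a share of up to 2.89% (exact 95% interval), and in 3.56% to 6.30% of the nuclei of the 6 libraries. The median depth before thinning was 2986 UMIs in neuron-like nuclei and 569 to 915 in the libraries. The part of this difference in depth was not tested, nor was whether neurons express inducible members.

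Nuclei of 1 library were also split by their UMIs of a list of 40 interferon response genes, which holds no proteasome member. This list summed to 3859 and 2608 CPM in the P301S/E4 libraries, 3009 and 2420 in the P301S/EKO libraries and 1145 and 1102 in the E4 libraries, so the E4 libraries were the lowest for this list as they were for the inducible members; the part of either in the other was not tested. In thinned nuclei with 3 or more interferon UMIs, the inducible members stood at 502 CPM in P301S/E4/TREM2-, 496 in P301S/E4/TREM2+, 514 in P301S/EKO/TREM2+, 526 in P301S/EKO/TREM2-, 479 in E4/TREM2+ and 378 in E4/TREM2-. In nuclei with 0 interferon UMIs they stood at 387, 379, 306, 310, 271 and 223. The ratio was 1.30 (95% counting interval 1.13 to 1.49) and 1.31 (1.11 to 1.54) in the P301S/E4 libraries. It was 1.68 (1.36 to 2.08) to 1.77 (1.17 to 2.60) in the other 4 libraries, and each of their intervals overlapped those of P301S/E4. The other members had ratios of 0.939 to 1.09, and each of those intervals held 1.

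Among nuclei with 0 interferon UMIs, the 4 tau libraries were above the E4 libraries. The intervals were 348 to 428 and 345 to 416 in P301S/E4 and 241 to 303 and 199 to 250 in E4. The interval of P301S/EKO/TREM2+, 266 to 350, and that of P301S/EKO/TREM2-, 272 to 352, overlapped that of E4/TREM2+. A thinned nucleus holds few UMIs, so a count of 0 does not mark a nucleus without the interferon response. Whether the difference between libraries remains without that response was therefore not tested. Psme1 had the clearest ratio of the single genes, 1.41 (1.15 to 1.73) and 1.38 (1.09 to 1.74) in the P301S/E4 libraries, 1.88 and 1.85 in P301S/EKO and 2.28 and 2.62 in E4. The Psme1 intervals of all libraries overlapped. Psmb10 had ratios of 0.662 (0.368 to 1.17) and 0.723 (0.286 to 1.62) in the P301S/E4 libraries. The ranges are cuts of a count and not cell types, and the bin of 3 or more held 121 and 164 nuclei in the E4 libraries with 29 and 31 inducible UMIs.

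**Figure D5:**
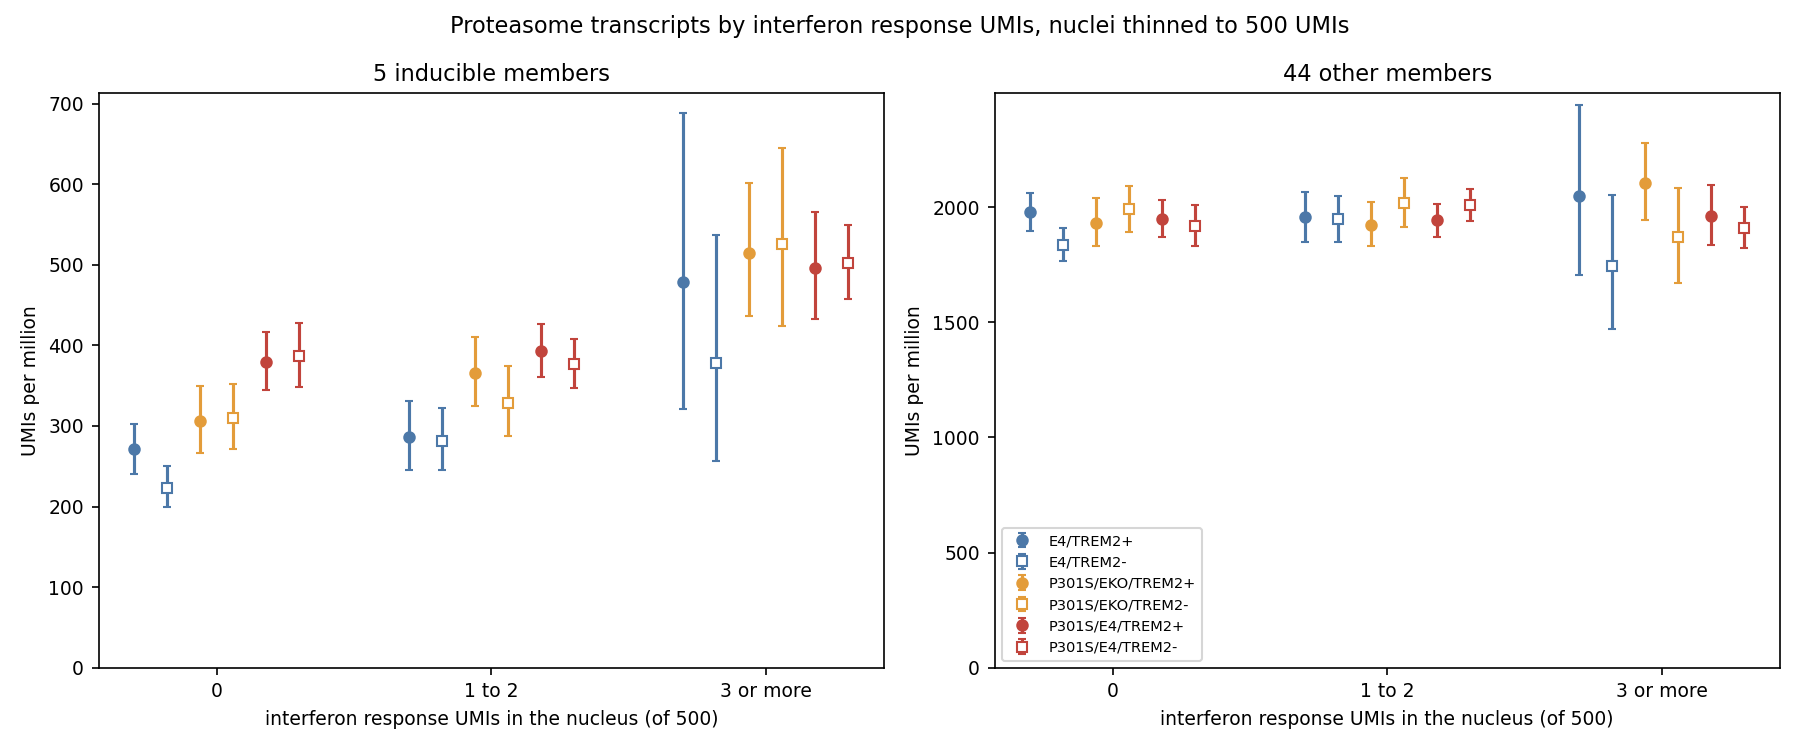
CPM (vertical axes, from 0) of the 5 inducible members (left) and 44 other members (right) in nuclei thinned to 500 UMIs, by the number of interferon response UMIs in the nucleus (horizontal axes), with exact 95% Poisson intervals; colours and symbols mark the libraries. The inducible level is 223 to 387 in nuclei with 0 interferon UMIs and 378 to 526 in nuclei with 3 or more, while the other members stay between 1744 and 2106.

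The same sums were read in clusters of nuclei, which were built without the proteasome members. In the cluster led by Mx1, Oasl2 and Ifit3 (3366 nuclei), the inducible members stood at 481 and 464 CPM in P301S/E4/TREM2- and P301S/E4/TREM2+ and at 445 and 503 in the P301S/EKO libraries. In the cluster led by Lpl, Spp1 and Itgax (5366 nuclei) they stood at 400 and 394 in the P301S/E4 libraries, and in the cluster led by Gpnmb and Spp1 (1564 nuclei) at 294 and 323. The Gpnmb-led nuclei thus held fewer inducible UMIs than the interferon-led nuclei of the same libraries, with intervals of 264 to 328 against 448 to 515 in P301S/E4/TREM2-. A small cluster of 191 nuclei led by Cxcl10 and Rsad2 was read over all libraries together, with 3 and 0 nuclei from the E4 libraries. It had the highest sum of the clusters read that way, 855 CPM. Psme1 was at 420 there, and Psmb8 and Psmb9 were at 121 each, from 24 UMIs each. In these clusters the other members lay between 1871 and 2066, and cluster values are a description of nuclei that share a library. The E4 libraries gave few nuclei here, 35 and 31 in the Mx1-led cluster and 7 and 2 in the Gpnmb-led cluster. In the microglia-like cluster led by Ighg1 and Igkc, the inducible members stood at 393 and 358 in P301S/E4 and 311 and 250 in E4. In border-macrophage-like nuclei they stood at 317 and 391 in P301S/E4 and 388 and 324 in E4, so these groups overlapped.

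The authors' deposited table of TERM nuclei, a microglial state they named, against homeostatic nuclei listed all 49 members with a median log fold change of 0.37, beside 0.34 for all 16056 genes listed. Above 0 at an adjusted p of 0.05 or less in the authors' deposited table were 3 members, Psma1 at 0.63, Psmd2 at 0.90 and Psmd7 at 0.65, a share of 6.12% beside 5.54% of all genes. None was inducible, and the inducible members had a median of 0.22 there. The authors' deposited table that set TREM2+ against TREM2- within P301S/E4 held 0 members at that threshold, where 0.249% of all genes were higher and 0.978% lower. Those p-values were calculated over nuclei, and the base of the logarithm is not stated in the sources used here.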

How the data were processed

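The authors deposited raw UMI counts per nucleus for 6 libraries, made with Cell Ranger 3.0.1 per the file headers and aligned to mm10 per the labels' protocols; whether intronic reads were counted is not given in the sources used here. The authors' deposited tables hold log fold changes (a score of unstated base) and p-values over nuclei. Nuclei with 200 or more genes and at most 5% mitochondrial UMIs were summed per library, and no doublet caller was run. edgeR 4.0.16 (R 4.3.3) fitted background and TREM2 genotype to all 6 libraries, with a call at an adjusted p of 0.05 or less. The settings were TMM, filterByExpr, the quasi-likelihood test, 2 residual degrees of freedom and Benjamini-Hochberg over 12515 genes. No genotype had a second library. The p-values therefore set each effect against the departure of the libraries from additive background and TREM2 effects, not against the spread between replicate pools or mice. That error estimate also drew on other genes, with 8.60 prior degrees of freedom. Psma8 (60 UMIs) and Psmb11 (34 UMIs) were not tested. The fit was tested on simulated data. DESeq2 1.42.0 was an alternative. scanpy 1.11.5 clustered the nuclei without the members; names came from marker lists. The members named are the inducible and catalytic subunits, Psme3, Psme4, every called member and the 3 highest and 3 lowest per comparison; others were named after their values were seen. Members and lists were chosen with earlier results of these data known.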

Additional observations from a re-analysis of the deposited data

Results flagged for a closer look

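For 3 members the ratio between paired libraries ran one way in 1 background or TREM2 genotype and the opposite way in another. The counting intervals excluded 0 on both sides, but they cover counting error only and were not adjusted for the number of members searched. The share of all genes that meet this rule was not counted, so the number is not a result about the members. The differences were not tested, since each value compares 1 library with 1 library. The TREM2- over TREM2+ log2 ratio of Psmb4 was -0.67 in P301S/E4 and 0.57 in P301S/EKO. That of Psmd12, a regulatory particle subunit, was -0.32 in E4 and 0.27 in P301S/E4. The P301S/E4 over E4 log2 ratio of Psmd12 was -0.33 in TREM2+ and 0.25 in TREM2-. That of Psme3 was -0.72 in TREM2+ and 0.49 in TREM2-.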

How the results depend on the processing

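For tau, 3 members were called in the reported test, 0 with DESeq2, and 0 to 7 with 1 library left out: 0 without E4/TREM2+ and without E4/TREM2-, and 7 without P301S/E4/TREM2+. For APOE4, 1 member was called with no expression filter and 0 to 3 with 1 library left out. For TREM2, 0 members were called under every alternative run. The inducible median minus that of the other members was 0.49 for tau (0.28 to 0.65 with 1 library left out). It was 0.14 for APOE4, 0.18 with no mitochondrial limit, 0.10 in microglia-like nuclei alone and 0.06 to 0.21 with 1 library left out. For TREM2 it was -0.04, -0.15 with 500 or more genes per nucleus and -0.07 to 0.05 with 1 library left out, which crosses 0. The share of nuclei with an inducible UMI depends on depth by construction. At 300 UMIs and without thinning it was 11.2% and 32.9% in P301S/E4/TREM2-, 11.0% and 27.4% in P301S/E4/TREM2+, 10.6% and 28.7% in P301S/EKO/TREM2+, 10.4% and 18.4% in P301S/EKO/TREM2-, 8.53% and 17.5% in E4/TREM2+, and 7.29% and 17.6% in E4/TREM2-. At 300 UMIs the ratio of inducible UMIs between nuclei with 3 or more and 0 interferon UMIs was 1.16 (0.929 to 1.44) in P301S/E4/TREM2-. It was 1.63 (0.776 to 3.04) in E4/TREM2+ and 1.79 (0.881 to 3.25) in E4/TREM2-, so these intervals held 1 too. In P301S/E4/TREM2+ and both P301S/EKO libraries the interval lay above 1. Psmb8 missed the threshold for tau with 500 or more genes per nucleus (0.53), and Psme1 in microglia-like nuclei (0.39) and without P301S/E4/TREM2- (0.34), E4/TREM2+ (0.59) or E4/TREM2- (0.29). No called value changed sign. Among all named members, called or not, the sign changed under at least 1 alternative for 2 of 13 for tau (Psmb7 and Psme3). It changed for 4 of 15 for APOE4 (Psmb4, Psmb10, Psme2 and Psme3) and 2 of 15 for TREM2 (Psmb10 and Psme3). The alternative of 500 or more UMIs per nucleus was chosen after seeing the data. The TREM2 test compares libraries within each background, and the others within each TREM2 genotype, as both are terms of the fit. A block by replicate number was not possible, since each genotype has 1 library. The causes of these changes were not tested.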
